A study of Homo sapiens with 6 samples.

Results

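Cell death by the mitochondrial route is governed by the BCL2 family and carried out by caspases. This account covers 38 genes of that machinery in A549 cells: the BCL2 family, a set of caspases, the apoptosome and the inhibitors that act on them. They were taken as a fixed list of gene symbols, and a gene counted as measured where the array annotation gave a probe set that symbol alone. Of the 38 listed, 35 were measured, out of 11963 genes with a single symbol on the array. BBC3, BMF and CASP14 were not analysed here. Each gene was represented by its probe set with the highest mean over all 6 arrays, and 20 of the 35 had further probe sets, 71 in all.

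A549 is an established human lung adenocarcinoma line of alveolar epithelial origin. Expression was measured on Affymetrix arrays in 3 groups of 2: cells transfected with the pCMV5 plasmid carrying human PIAS3, cells transfected with an siRNA against STAT3, and control cells stimulated with EGF and not transfected. PIAS3, a SUMO ligase, is known for binding and inhibiting STAT3, the transcription factor that the siRNA targets. Flasks were seeded for 12 h in medium with 10% FBS, per the design text every group then had serum-free medium and EGF before transfection, and RNA was taken 48 h after transfection, with no separate time given for the control. No group is labelled as given an empty plasmid or a control siRNA, so transfection itself cannot be told apart from either agent in a comparison with the control. Whether the replicates were separate cultures is not stated, so the p-values reflect only the spread of these arrays, possibly a technical one. The number of arrays limits the precision, and a lower level per cell cannot be told apart from fewer cells that express a gene.

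In healthy cells, pro-survival proteins such as BCL2, BCL-XL and MCL1 bind the pore formers BAX and BAK and hold them inactive. Under stress, BH3-only proteins occupy the pro-survival proteins or activate the pore formers directly, and the outer mitochondrial membrane is breached. Cytochrome c then assembles with APAF1 into the apoptosome, which activates caspase-9, while SMAC and HTRA2 relieve the block that XIAP places on caspases. STAT3 is known to drive several pro-survival members of the family in tumour cells, and much of the control over these proteins acts after transcription, where an array does not see it.

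The targeted genes and the quality of the arrays come first. STAT3 read 10.18 and 9.70 in PIAS3 cells and 10.23 and 9.94 in siRNA cells, against 10.50 and 10.43 in control cells, on the log2 scale of RMA values used throughout. Its difference from control was -0.53 ± 0.18 with PIAS3 and -0.38 ± 0.18 with the siRNA (SE, n = 2 per group), and neither passed the threshold of 0.05 (limma adjusted p of 0.254 and 0.9998). The other STAT3 probe set gave -0.60 ± 0.15 and -0.33 ± 0.15 (limma adjusted p of 0.145 and 0.9998). STAT3 in PIAS3 cells minus siRNA cells was -0.15 and -0.27 on these probe sets, and neither passed. PIAS3 itself read 7.78 and 7.72 in PIAS3 cells, against 7.70 and 7.71 in control cells, and whether its probes lie in the plasmid insert is not known here, so this level checks nothing about the plasmid. PIAS3 replicate 1 stood apart: the median of 29 interferon-stimulated genes lay 3.55 above the control mean there, and between -0.07 and 0.00 in the other arrays, and their mean level was 9.72 there and between 5.95 and 6.13 elsewhere. Poly-A spike-in probe sets of that array lay 1.44 above the control mean, and the 3' excess of actin signal over the 5' signal, a sign of RNA quality, was 0.43 there and 0.28 in PIAS3 replicate 2, with 0.16 and 0.23 in siRNA cells and 0.12 and 0.10 in the controls. The same excess for GAPDH did not set the PIAS3 arrays apart, at 0.40 and 0.37 in PIAS3 cells and 0.29 and 0.40 in siRNA cells, against 0.36 and 0.29 in control cells. Probe sets for a bacterial gene that human cells lack, the absent-transcript controls, spanned 3.26 to 3.93. All 5 epithelial markers read above them in every array, but only KRT8 and KRT18, between 12.39 and 13.79, stood alike in all. KRT19 read 9.02 and 9.34 in PIAS3 cells and 10.76 and 9.42 in siRNA cells, against 11.16 and 11.02 in control cells. EPCAM read 6.36 and 6.78 in PIAS3 cells and 7.12 and 6.04 in siRNA cells, against 7.24 and 7.22 in control cells, while CDH1 read 9.54 and 9.14 in PIAS3 cells and 8.37 and 8.60 in siRNA cells, against 8.31 and 8.19 in control cells. The part of these marker differences in the results was not tested. All 6 measured alveolar type II markers also read above those controls. SFTPC, SFTPB, SFTPD and NKX2-1 spanned 7.41 to 7.71, 7.07 to 7.20, 4.29 to 4.76 and 5.60 to 6.02 over the arrays. ABCA3 read 8.22 and 8.31 in PIAS3 cells and 8.47 and 8.14 in siRNA cells, against 8.61 and 8.62 in control cells, and LAMP3 read 6.42 in PIAS3 replicate 1 and 4.16 to 4.42 elsewhere. Of 27 measured leukocyte, fibroblast and endothelial markers, 3 (LYZ, LUM and POSTN) stayed in all arrays below the top of the absent-transcript controls. Above it in every array were 8 of 10 leukocyte, 8 of 10 fibroblast and 6 of 7 endothelial markers. Among these, COL1A1 read between 8.58 and 8.88 and CD3E between 6.63 and 7.09. The mean level of each of these lists lay between 4.95 and 5.40 in all arrays.

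Nearly all members read above the absent-transcript controls. Most leukocyte, fibroblast and endothelial markers did as well, so this alone does not show that a transcript was present. Of the 35 genes, 34 read above the highest absent-transcript control in all 6 arrays, and CASP5, an inflammatory caspase, did so in 5. Cytochrome c (CYCS) read between 12.21 and 12.38, MCL1 between 10.45 and 11.13, SMAC (DIABLO) between 10.22 and 10.66, and BCL-XL (BCL2L1) between 10.24 and 10.52. BCL2 read between 5.57 and 6.02 and XIAP between 5.18 and 5.43. For comparison, the 10 measured leukocyte markers spanned 3.39 to 7.09 over the arrays. Among them CD79A and CD3D read near these levels, between 5.86 and 6.18 and between 5.41 and 5.54. PTPRC and TYROBP read lower, between 3.85 and 3.95 and between 4.05 and 4.34, and CD3E higher, between 6.63 and 7.09. Levels of different genes come from different probes and are given only as levels, not as a ranking of transcript amounts.

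Since STAT3 binds the palindrome TTCNNNGAA, the start sites of the members were searched for those letters. A window of 250 bases before to 50 after a start site was given by RefSeq on GRCh38.p14 for 29 of the 35 measured members, with 48 windows among them. The letters, which read the same on both strands, were found in 3 windows of the members (6.25%), in BCL2A1, CASP5 and BCL2L14, and in 7.66% of all 35116 windows. The windows are shown because they mark the members for which this study of STAT3 could be read against sequence; capitals mark the match, which starts 168, 100 and 85 bases before the start site. They lie at chr15:79971147-79971446 on the minus strand for BCL2A1, at chr11:105023119-105023418 on the minus strand for CASP5 and at chr12:12071153-12071452 on the plus strand for BCL2L14.
BCL2A1: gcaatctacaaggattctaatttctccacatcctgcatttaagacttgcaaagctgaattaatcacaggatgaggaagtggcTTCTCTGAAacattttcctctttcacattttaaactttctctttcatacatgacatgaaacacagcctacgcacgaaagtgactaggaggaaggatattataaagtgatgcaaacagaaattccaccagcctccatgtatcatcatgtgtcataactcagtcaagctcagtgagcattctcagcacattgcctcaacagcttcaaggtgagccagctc
CASP5: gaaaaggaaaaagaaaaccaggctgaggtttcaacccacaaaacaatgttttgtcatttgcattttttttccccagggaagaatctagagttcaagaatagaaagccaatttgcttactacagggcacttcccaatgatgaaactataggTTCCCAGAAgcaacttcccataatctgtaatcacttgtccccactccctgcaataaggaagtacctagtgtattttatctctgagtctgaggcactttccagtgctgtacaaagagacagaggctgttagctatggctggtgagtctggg
BCL2L14: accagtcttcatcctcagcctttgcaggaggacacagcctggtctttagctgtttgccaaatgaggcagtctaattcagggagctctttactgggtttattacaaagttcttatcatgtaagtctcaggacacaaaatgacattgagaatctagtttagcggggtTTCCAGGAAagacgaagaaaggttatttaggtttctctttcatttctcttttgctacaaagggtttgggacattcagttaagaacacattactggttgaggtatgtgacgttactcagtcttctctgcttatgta
A match in these letters is no measured binding site.

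**Figure D1:**
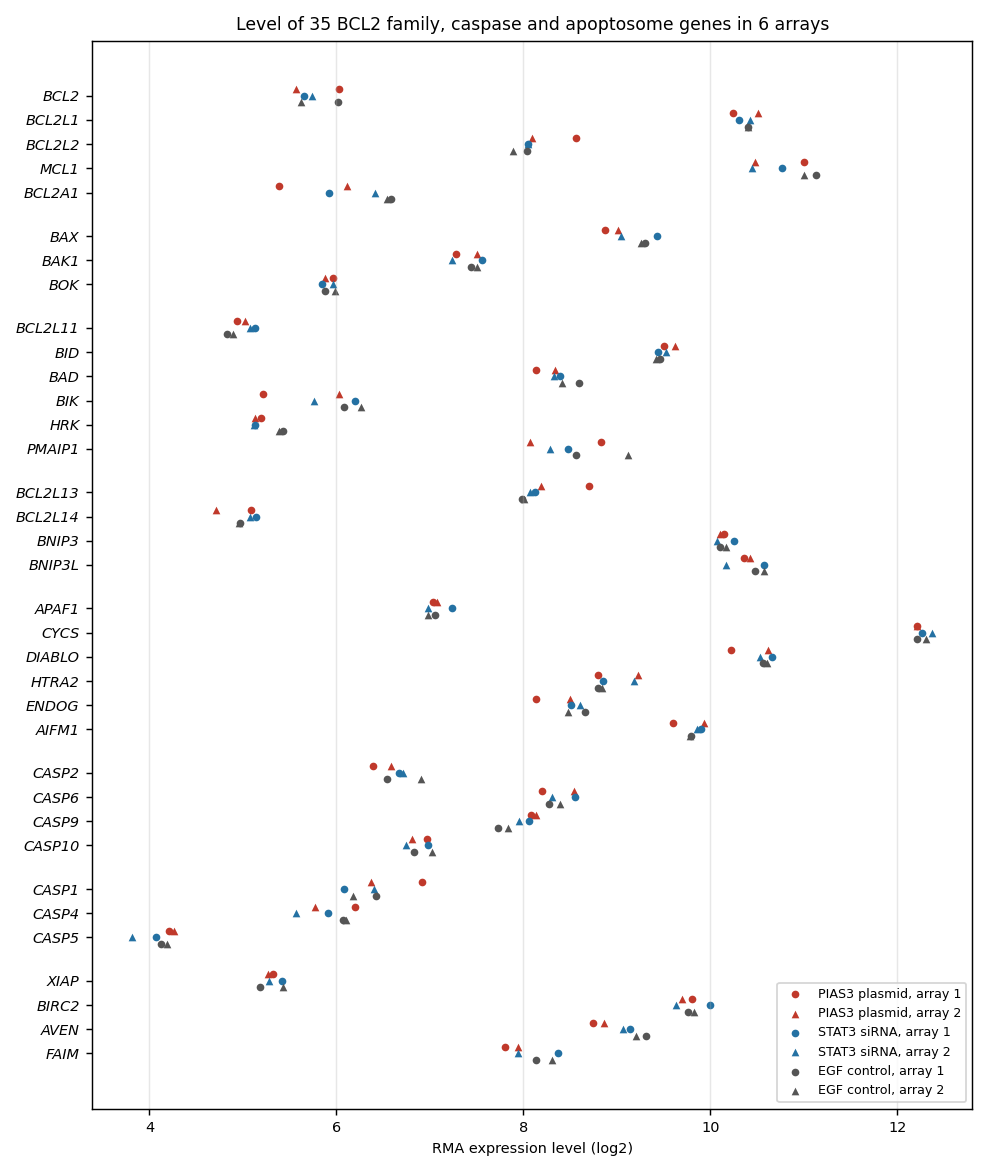
RMA expression level (log2, horizontal axis) of each of the 35 measured genes in each array, grouped by role from pro-survival proteins at the top to inhibitors at the bottom; circles are replicate 1 and triangles replicate 2 of the PIAS3 (red), STAT3 siRNA (blue) and EGF control (grey) groups. The 6 marks of most genes lie close together, while BCL2A1, BIK and PMAIP1 are spread widely; positions are to be compared within a row only.

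The comparison of PIAS3 with the EGF control asks whether the genes of mitochondrial cell death differed in cells given the plasmid. No member differed by an amount that the test separated from the spread between arrays. By limma, 0 of 35 passed an adjusted p of 0.05 in either direction, against 0.125% of all 11963 genes. The lowest adjusted p among the members was 0.141, for the apoptosis inhibitor AVEN. At an unadjusted p under 0.05 there were 5, BCL2L13 and CASP9 on the higher side and AVEN, BCL2A1 and HRK on the lower, which is 14.3% of the members where 14.6% of all genes did the same (7.13% higher and 7.44% lower). Without PIAS3 replicate 1 the count of members that passed was also 0, and without PIAS3 replicate 2 it was 3 (BCL2A1, BCL2L2 and BCL2L13), in a fit that passed 1232 of all 22215 probe sets (5.55%) and rests on the array with raised interferon-stimulated genes. Both PIAS3 arrays lay beyond both controls for 14 of 35 members (40%), where 46.1% of all genes did. The members' median difference was -0.04, with 10 above control and 25 below. The median over all genes was -0.00, with 5877 above and 6086 below. The median size of a difference was 0.13 among the members and 0.12 among all genes.

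The pro-survival genes held the largest difference of the list. BCL2A1 (BFL-1), a pro-survival protein induced by NF-kB, read 5.39 and 6.12 in PIAS3 cells, against 6.59 and 6.54 in control cells. Both PIAS3 arrays lay below both controls, and replicate 1 lay lowest. The difference was -0.81 ± 0.25 (SE, n = 2 each), with a 95% interval of -1.40 to -0.22, and it did not pass (limma adjusted p = 0.223). Without PIAS3 replicate 1, the array with raised interferon-stimulated genes, it was -0.45 (adjusted p = 0.511), and without PIAS3 replicate 2 it was -1.18 (adjusted p = 0.0333). The part of that array's other differences in this result was not tested.

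BCL2L1, which encodes BCL-XL, read 10.24 and 10.52 in PIAS3 cells, against 10.41 and 10.40 in control cells. The controls lay between the PIAS3 arrays, and the interval of the difference ran from -0.32 to 0.27. Its other probe sets gave -0.23 ± 0.15 and -0.34 ± 0.18, each with both PIAS3 arrays below both controls and neither passing, and averaged over its probe sets the difference was -0.20 (limma adjusted p = 0.587), against -0.03 for the brightest. BCL2 read 6.02 and 5.57 in PIAS3 cells, against 6.02 and 5.62 in control cells, so that the groups overlapped, with an interval of -0.46 to 0.42 and -0.10, 0.17 and -0.01 from its other probe sets. MCL1, a short-lived pro-survival protein, read 11.01 and 10.48 in PIAS3 cells, against 11.13 and 11.00 in control cells. The difference was -0.33 ± 0.19 (limma adjusted p = 0.525), and replicate 1 stood within the range of the controls. It was -0.59 without PIAS3 replicate 1 and -0.06 without PIAS3 replicate 2. The 5 MCL1 probe sets did not give the same difference: the 4 others gave -0.77, -0.42, -0.12 and 0.07, and the first of these, at an adjusted p of 0.104, had the lowest adjusted p of all 71 probe sets of the family. BCL2L2 (BCL-W) read 8.56 and 8.09 in PIAS3 cells, against 8.04 and 7.88 in control cells, a difference of 0.36 ± 0.16 (limma adjusted p = 0.389), which was 0.13 without PIAS3 replicate 1 and 0.60 without PIAS3 replicate 2 (adjusted p = 0.0484).

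The pore formers stood at or a little below control. BAX read 8.88 and 9.01 in PIAS3 cells, against 9.30 and 9.26 in control cells, and the groups did not overlap. The difference was -0.34 ± 0.15 (limma adjusted p = 0.365). Its other probe set lay lower as well, by -0.43 ± 0.15 (limma adjusted p = 0.260). BAK1, the partner of BAX on the mitochondrial surface, read 7.28 and 7.50 in PIAS3 cells, against 7.44 and 7.50 in control cells, with an interval of -0.42 to 0.25. BOK, a related protein, differed by -0.01.

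Of the 8 BH3-only genes listed, 6 were measured, 2 of them above control and 4 below. HRK, a sensitiser that occupies pro-survival proteins, read 5.20 and 5.13 in PIAS3 cells, against 5.42 and 5.39 in control cells. The groups did not overlap and the difference was -0.24 ± 0.10 (limma adjusted p = 0.349), but its other probe sets gave 0.18 ± 0.13 and -0.02 ± 0.10, so the difference rests on 1 probe set of 3. BIK, a BH3-only protein of the endoplasmic reticulum, read 5.22 and 6.03 in PIAS3 cells, against 6.08 and 6.26 in control cells, and PIAS3 replicate 1 alone lay far below. NOXA (PMAIP1), which binds MCL1, read 8.84 and 8.07 in PIAS3 cells, against 8.57 and 9.12 in control cells, with the largest spread of any member between the controls. BIM (BCL2L11) and BID differed by 0.12 each and BAD by -0.27, and none of them passed.

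Among the more distant relatives, BCL2L13, a mitochondrial protein linked to mitophagy, read 8.70 and 8.19 in PIAS3 cells, against 7.98 and 8.01 in control cells. Both PIAS3 arrays lay above both controls, replicate 1 most. The difference of 0.45 ± 0.17 did not pass (limma adjusted p = 0.292). It was 0.20 without PIAS3 replicate 1 (adjusted p = 0.610) and 0.71 without PIAS3 replicate 2 (adjusted p = 0.0290). The mitophagy receptors BNIP3 and BNIP3L, known as hypoxia-inducible, differed by -0.01 and -0.13, and BCL2L14 by -0.07.

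None of the genes for the apoptosome and the proteins released from mitochondria passed. CYCS read 12.22 and 12.21 in PIAS3 cells, against 12.21 and 12.31 in control cells, with an interval of -0.30 to 0.20. APAF1, the scaffold that cytochrome c assembles, read 7.03 and 7.08 in PIAS3 cells, against 7.05 and 6.98 in control cells, with an interval of -0.25 to 0.33. DIABLO read 10.22 and 10.62 in PIAS3 cells, against 10.57 and 10.61 in control cells, and replicate 1 alone lay below, by -0.37, so that the difference without it was 0.03. HTRA2, a protease that antagonises XIAP, differed by 0.19, the nuclease ENDOG by -0.25 and the flavoprotein AIFM1 by -0.02.

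Among the apoptotic caspases, CASP9 lay on the higher side and was alike in both PIAS3 arrays. CASP9, the initiator that the apoptosome activates, read 8.08 and 8.14 in PIAS3 cells, against 7.73 and 7.84 in control cells. The groups did not overlap. The difference was 0.32 ± 0.11 (SE, n = 2 each), a 1.25-fold higher level with a 95% interval of 0.07 to 0.58 on the log2 scale, and it did not pass (limma adjusted p = 0.251). Its other probe set gave 0.19 ± 0.10, also with both PIAS3 arrays above both controls. Without PIAS3 replicate 1 the difference was 0.35 (adjusted p = 0.387). CASP2, CASP6 and CASP10 differed by -0.23, 0.03 and -0.03.

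CASP1, the caspase of inflammasomes and a gene known to respond to interferon, read 6.91 and 6.37 in PIAS3 cells, against 6.42 and 6.18 in control cells. On this probe set PIAS3 replicate 1 alone lay above, by 0.61 over the control mean. That is the array in which interferon-stimulated genes were raised, and their part in this difference was not tested. Its other probe sets gave 0.50 ± 0.16 (limma adjusted p = 0.225), 0.32 ± 0.19, 0.29 ± 0.16 and 0.19 ± 0.13, and none passed. On each, both PIAS3 arrays lay above both controls, replicate 1 most. On all but the second, the control values, such as 3.77 and 3.64 on the first, fall inside the span of those absent-transcript controls. CASP5, an inflammatory caspase of the non-canonical inflammasome, read 4.21 and 4.26 in PIAS3 cells, against 4.13 and 4.18 in control cells, and CASP4 differed by -0.10.

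The 4 caspase and apoptosis inhibitors stood at or below control on the probe sets that represent them. AVEN, which binds BCL-XL and APAF1, read 8.75 and 8.86 in PIAS3 cells, against 9.31 and 9.20 in control cells. Both PIAS3 arrays lay below every other array of the series. The difference of -0.46 ± 0.11 (1.37-fold lower, 95% interval -0.71 to -0.20) did not pass at an adjusted p of 0.141 in limma, and it was -0.40 without PIAS3 replicate 1 (adjusted p = 0.333). XIAP, the direct inhibitor of caspases, read 5.33 and 5.27 in PIAS3 cells, against 5.18 and 5.43 in control cells. The interval of its difference was -0.30 to 0.29, and its other probe set gave 0.11. FAIM, an inhibitor of death receptor signalling, differed by -0.35 ± 0.16 (limma adjusted p = 0.398) and the ubiquitin ligase BIRC2 by -0.04.

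**Figure D2:**
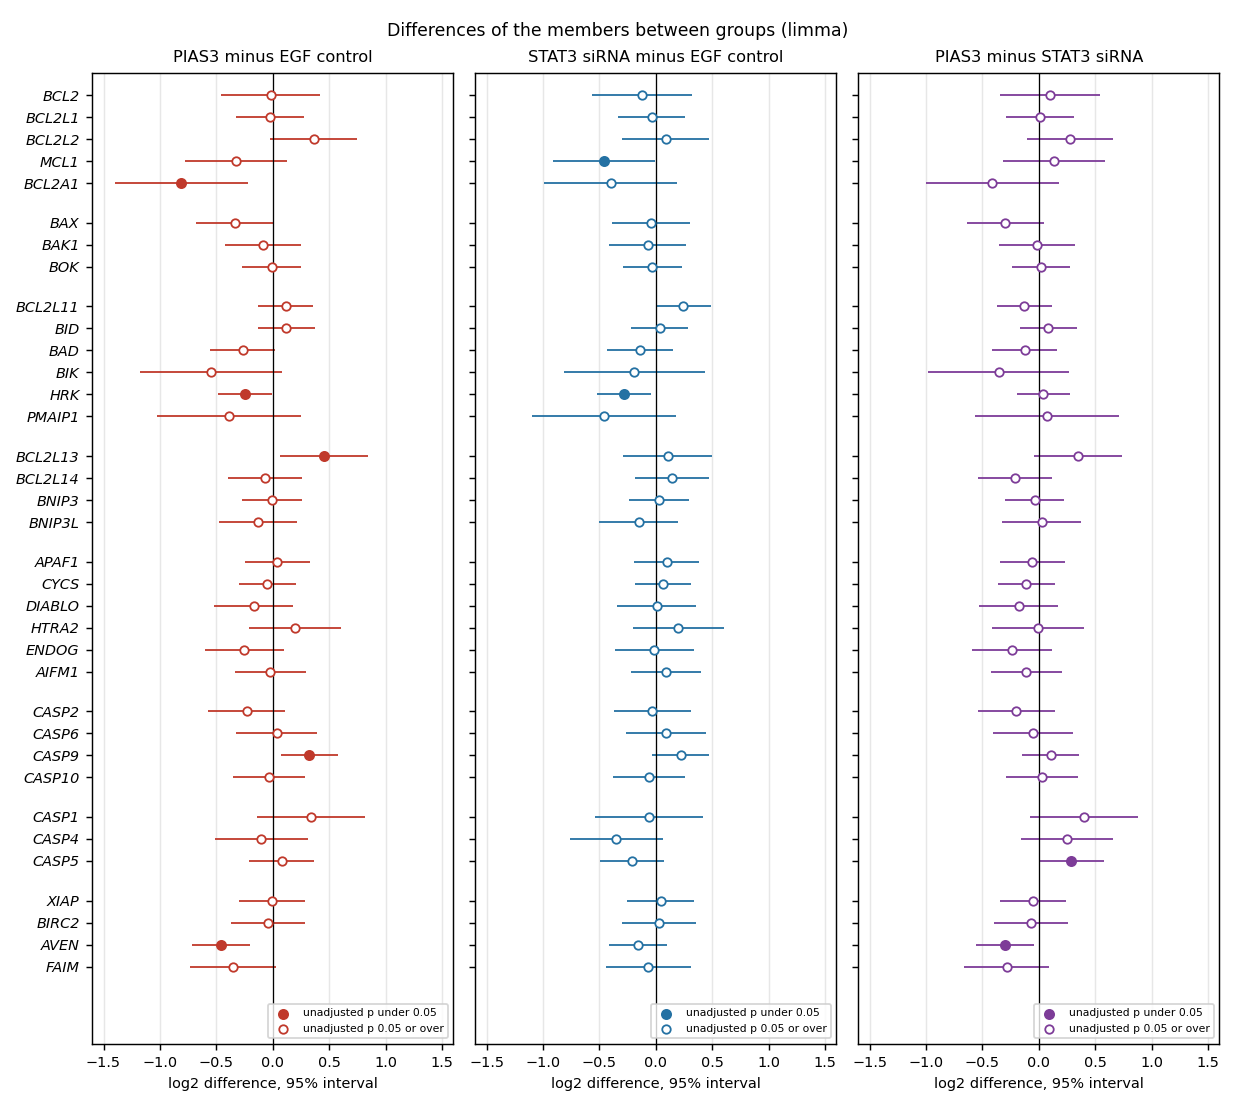
Difference on the log2 scale (horizontal axis) of each member in the 3 comparisons, with its 95% interval from the limma fit; filled points have an unadjusted p under 0.05, and 0 passed the adjusted threshold. Nearly all intervals cross 0, and those of BCL2A1, BIK and PMAIP1 are the widest.

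The width of these intervals sets what could have been seen. Their half-widths ran from 0.24 to 0.64 on the log2 scale with a median of 0.34. For PIAS3 against control, 32 of the 35 intervals lay within 1 log2 unit of 0 on both sides, the exceptions being BCL2A1, BIK and PMAIP1. On the probe sets that represent them, a doubling or a halving therefore lay outside the intervals of those 32 members. That does not extend to every other probe set: the MCL1 probe set with a difference of -0.77 had an interval of -1.13 to -0.41. Differences of the size measured for AVEN or CASP9 could not be separated from the spread after adjustment.

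The 2 PIAS3 arrays differed from each other by more than the arrays of the other groups, in this family and over all genes alike. The median gap between the arrays over the 35 members was 0.19 in the PIAS3 group and 0.14 in the STAT3 siRNA group, against 0.10 in the control group, and over all genes it was 0.17, 0.14 and 0.09. How many of all genes had a gap over 0.5 was not counted. Among the members, 6 had one in the PIAS3 group and 0 in the STAT3 siRNA group, against 1 in the control group. The 6 were BIK, PMAIP1, BCL2A1, CASP1, MCL1 and BCL2L13. Of these, PIAS3 replicate 1 was the higher array for PMAIP1, CASP1, MCL1 and BCL2L13 and the lower for BIK and BCL2A1. The part of the raised interferon-stimulated genes of that array in these gaps was not tested.

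**Figure D3:**
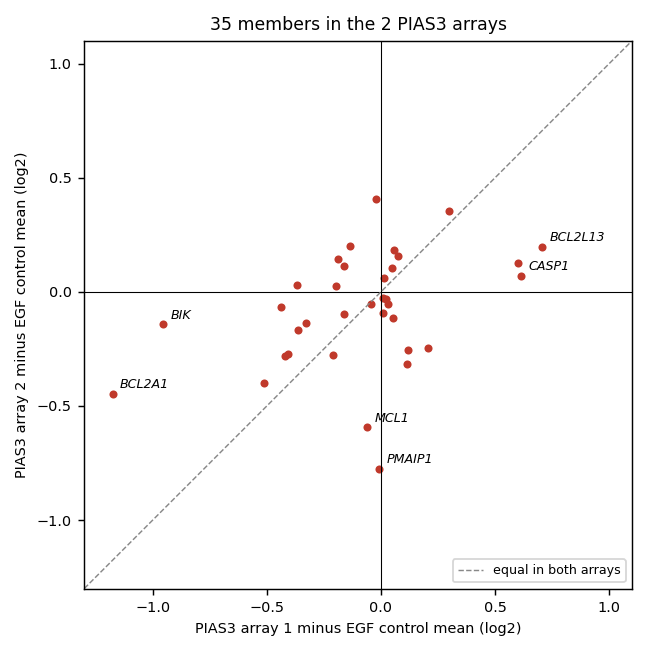
Each of the 35 members by its log2 difference from the control mean in PIAS3 replicate 1 (horizontal axis) and replicate 2 (vertical axis); the dashed line marks equal values, and members whose arrays differ by over 0.5 are named. BCL2A1 and BIK lie far to the left, CASP1 and BCL2L13 to the right, and MCL1 and PMAIP1 are low in replicate 2 alone.

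The comparison of the STAT3 siRNA with the EGF control asks whether the same genes differed in cells given the siRNA. Here too no member was separated from the spread: 0 of 35 passed in limma in either direction, against 0.00836% of all genes, and the lowest adjusted p among them was 0.977, for HRK. At an unadjusted p under 0.05 there were 2, HRK and MCL1, both on the lower side. They make up 5.71% of the members, where 5.37% of all genes were at that level (2.32% higher and 3.06% lower). Both siRNA arrays lay beyond both controls for 15 members (42.9%), where 39% of all genes did. The median difference of the members was -0.03, with 15 above control and 20 below, where 5925 of all genes lay above and 6038 below. Of the 35 intervals, 34 lay within 1 log2 unit of 0, PMAIP1 being the exception. The siRNA and PIAS3 groups are set against the same control arrays, so their differences from control are not independent of each other.

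MCL1 read 10.77 and 10.45 in siRNA cells, against 11.13 and 11.00 in control cells. Both siRNA arrays lay below both controls. The difference was -0.46 ± 0.19 (SE, n = 2 each), a 1.38-fold lower level with an interval of -0.92 to -0.00, and it did not pass (limma adjusted p = 0.9998). The 4 other MCL1 probe sets gave -0.40, -0.20, -0.20 and -0.36, so all 5 lay on the lower side. The difference was -0.62 without siRNA replicate 1 and -0.30 without siRNA replicate 2. HRK read 5.13 and 5.12 in siRNA cells, against 5.42 and 5.39 in control cells, a difference of -0.28 ± 0.10, with -0.18 ± 0.13 and -0.02 ± 0.10 from its other probe sets.

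Other pro-survival genes stood near control or lay apart without passing. BCL2L1 read 10.31 and 10.43 in siRNA cells, against 10.41 and 10.40 in control cells, with an interval of -0.33 to 0.26. BCL2 read 5.65 and 5.74 in siRNA cells, against 6.02 and 5.62 in control cells, and the controls spanned both siRNA values. BCL2A1 read 5.92 and 6.41 in siRNA cells, against 6.59 and 6.54 in control cells, a difference of -0.40 ± 0.25 (limma adjusted p = 0.9998) without overlap.

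BAX read 9.43 and 9.05 in siRNA cells, against 9.30 and 9.26 in control cells, and BAK1 read 7.56 and 7.24 in siRNA cells, against 7.44 and 7.50 in control cells. For both pore formers the siRNA arrays spanned the controls, with intervals of -0.38 to 0.30 and -0.41 to 0.26. CASP9 read 8.06 and 7.95 in siRNA cells, against 7.73 and 7.84 in control cells, and did not overlap, at a difference of 0.22 ± 0.11 (limma adjusted p = 0.9998). BCL2L13 read 8.13 and 8.07 in siRNA cells, against 7.98 and 8.01 in control cells, a difference of 0.11 ± 0.17. CASP5 read 4.07 and 3.82 in siRNA cells, against 4.13 and 4.18 in control cells, and its second siRNA value lies within the range of the absent-transcript controls. BCL2L11, the activator BIM, read 5.13 and 5.08 in siRNA cells, against 4.83 and 4.89 in control cells, a difference of 0.24 ± 0.10.

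CYCS read 12.27 and 12.38 in siRNA cells, against 12.21 and 12.31 in control cells. APAF1 read 7.24 and 6.98 in siRNA cells, against 7.05 and 6.98 in control cells. Both apoptosome genes overlapped between the groups. DIABLO read 10.66 and 10.53 in siRNA cells, against 10.57 and 10.61 in control cells. XIAP read 5.42 and 5.28 in siRNA cells, against 5.18 and 5.43 in control cells. AVEN read 9.14 and 9.07 in siRNA cells, against 9.31 and 9.20 in control cells, below both controls, with a difference of -0.15 ± 0.11 (limma adjusted p = 0.9998). NOXA (PMAIP1) read 8.48 and 8.28 in siRNA cells, against 8.57 and 9.12 in control cells, a difference of -0.46 ± 0.27. The remaining members differed from control by between -0.35 (CASP4) and 0.20 (HTRA2), and none of them passed.

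The series' design sets apoptosis genes after PIAS3 against those after the STAT3 siRNA, and the groups were compared directly. No member differed between the transfected groups beyond the spread: 0 of 35 passed in limma, as did 0% of all genes, with a lowest adjusted p of 0.607. At an unadjusted p under 0.05 there were 2, AVEN lower and CASP5 higher with PIAS3, which is 5.71% of members beside 8.02% of all genes (4.19% higher and 3.83% lower). The arrays of the groups lay apart for 11 members (31.4%, beside 34.5% of all genes). AVEN differed by -0.30 ± 0.11 (interval -0.56 to -0.04, limma adjusted p = 0.607). BAX, with 8.88 and 9.01 in PIAS3 cells and 9.43 and 9.05 in siRNA cells, differed by -0.30 ± 0.15 (interval -0.64 to 0.05, limma adjusted p = 0.631). That value was -0.11 without siRNA replicate 1 and -0.49 without siRNA replicate 2. MCL1 differed by 0.13 ± 0.19 and its other probe sets by -0.37, -0.22, 0.08 and 0.44, and with single arrays left out it ran from -0.13 to 0.40, so its direction is not settled. BCL2L1 differed by 0.01 ± 0.13 and its other probe sets by -0.27 and -0.31, with -0.19 averaged over its probe sets (limma adjusted p = 0.699). On the probe sets that represent them, all 6 apoptosome and mitochondrial genes lay on the lower side with PIAS3, by -0.24 to -0.01. The arrays were apart for 2. HTRA2 was the one at -0.01, and its other probe set gave 0.07, while the other APAF1 probe sets gave -0.17 and -0.06. The lowest limma adjusted p among these 6 was 0.673. The 3 inflammatory caspases lay on the higher side, by 0.25 to 0.40, with the arrays apart for CASP5 alone. CASP1 and CASP4 were both highest in PIAS3 replicate 1. Of all 11963 genes, 5935 lay on the higher side with PIAS3 and 6028 on the lower.

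Across all 6 arrays, 4 members read higher in every transfected array than in both controls: BCL2L2, BCL2L11, BCL2L13 and CASP9. Another 4 read lower in every transfected array, namely BCL2A1, BAD, HRK and AVEN. Those are 4 of 35 in each direction, where 9.01% of all genes lay above and 10.7% below.

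**Figure D4:**
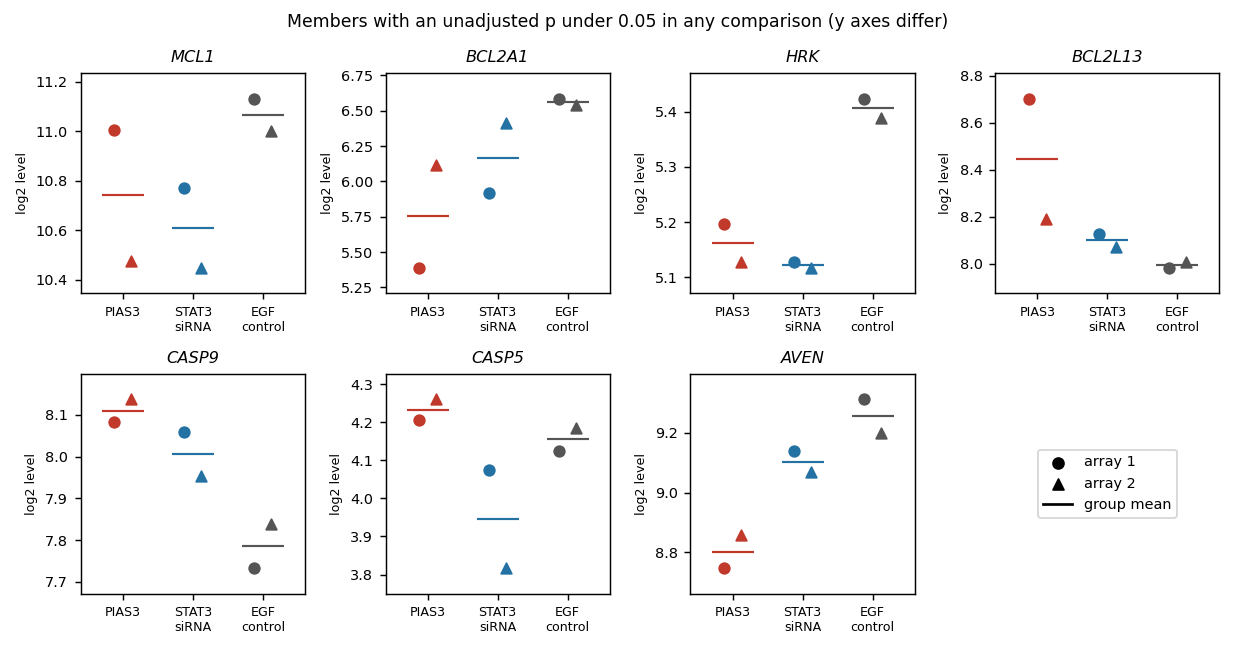
Level (log2, vertical axes differ between panels) of the 7 members with an unadjusted p under 0.05 in any comparison, with circles for replicate 1, triangles for replicate 2 and lines for group means. CASP9 is high and HRK low in all 4 transfected arrays relative to the controls, AVEN is lowest in the PIAS3 group, and BCL2L13 stands out through PIAS3 replicate 1.

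**Figure D5:**
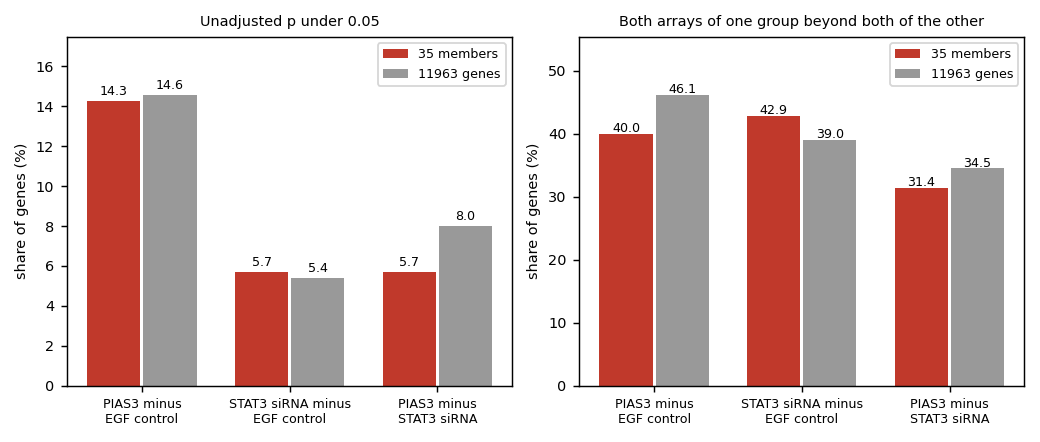
Share of the 35 members (red) and of all 11963 genes (grey) with an unadjusted p under 0.05 (left) and with both arrays of a group beyond both of the other (right), in percent, for the 3 comparisons. The shares of members, such as 14.3% for PIAS3 against control, lie close to those of all genes, such as 14.6%.

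The 3 members whose windows hold TTCNNNGAA lay on both sides of control. In the STAT3 siRNA arrays BCL2A1 differed from control by -0.40 ± 0.25, CASP5 by -0.21 ± 0.12 and BCL2L14 by 0.14 ± 0.14, and none passed in limma (adjusted p = 0.9998 for each). With PIAS3 the differences from control were -0.81 ± 0.25, 0.08 ± 0.12 and -0.07 ± 0.14, in the same order of genes.

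A separate list of 40 other genes of the pathway, with 37 measured, also held none that passed. It holds CASP8, further inhibitors, BCL2-binding proteins, mitochondrial channels and fission proteins, and caspase substrates. By limma 0 passed in each comparison, and 5, 2 and 4 were at an unadjusted p under 0.05 for PIAS3 against control, the siRNA against control and PIAS3 against the siRNA, which is 13.5%, 5.41% and 10.8% of the list beside 14.6%, 5.37% and 8.02% of all genes. PEA15, a protein that holds back death receptor signalling, read 9.36 and 9.64 in PIAS3 cells and 10.13 and 9.84 in siRNA cells, against 10.40 and 10.41 in control cells. All 4 transfected arrays lay below both controls, with differences of -0.90 ± 0.15 for PIAS3 (limma adjusted p = 0.0792) and -0.42 ± 0.15 for the siRNA (adjusted p = 0.959). Gelsolin (GSN), an actin-severing protein that caspases cleave, read 9.10 and 8.96 in PIAS3 cells and 8.63 and 8.59 in siRNA cells, against 9.47 and 9.36 in control cells. The siRNA arrays were the lowest, at -0.80 ± 0.11 (limma adjusted p = 0.238), against -0.39 ± 0.11 for PIAS3 (adjusted p = 0.194). At an unadjusted p under 0.05 for PIAS3 against control were also YWHAZ (-0.41 ± 0.11), CASP8 (0.58 ± 0.18) and ROCK1 (0.26 ± 0.11). CASP8 read 8.80 and 8.51 in PIAS3 cells and 8.09 and 8.58 in siRNA cells, against 8.04 and 8.12 in control cells (limma adjusted p = 0.219 for PIAS3). XAF1, an interferon-induced antagonist of XIAP, read 5.59 in PIAS3 replicate 1 and between 4.14 and 4.31 in the other 5 arrays.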

How the data were processed

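Titles gave each array its group and replicate number. The log2 values used are the authors' deposited ones, made with RMA per the submitters' processing notes, which give no version. RMA normalizes across arrays and compresses differences of dim probe sets. Array software and genome build are not stated. Of 22277 probe sets, 62 array controls were left out. Among the rest, the platform annotation gave 19064 a single symbol, 1043 more than 1 and 2108 none, and 19052 matched a gene identifier in RefSeq's table.

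A two-sided limma test (lmFit then eBayes, version 3.58.1 under R 4.3.3) used all 6 arrays with a mean per group and had 3 residual degrees of freedom. Within each of 3 comparisons, p-values were adjusted by Benjamini-Hochberg across the 22215 probe sets, with 0.05 as the threshold. Percentages beside the members' counts are over 1 probe set per gene. The fit was tested on simulated data. The members and lists were chosen with earlier results of these data known. By rule, values in all arrays are given for members with an unadjusted p under 0.05 in any comparison and for BCL2, BCL2L1, MCL1, BAX, BAK1, CASP9, APAF1, CYCS, DIABLO and XIAP. BCL2L2, BCL2L11, BIK, PMAIP1, CASP1, XAF1 and the other probe sets of a gene were singled out after their values were seen. No list was tested as a set.

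The alternatives tried were a replicate block, renormalization (quantile, median centring or cyclic loess), removal of probe sets under the 40th percentile, eBayes with a trend or made robust, array weights, only the compared groups in the fit, an adjusted p of 0.10, averaged probe sets per gene, and omission of each array, after which the lone array of a group is taken to vary like the others. None was added later. Figures used matplotlib 3.10.9.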

Additional observations from a re-analysis of the deposited data

Results flagged for a closer look

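CASP5 is given here because both PIAS3 arrays (4.21 and 4.26) lay above both controls (4.13 and 4.18), while both STAT3 siRNA arrays (4.07 and 3.82) lay below them. PIAS3 minus STAT3 siRNA was 0.29 on the log2 scale and did not pass in limma (adjusted p = 0.616). All values lie close to the absent-transcript controls, whose highest value was 3.93, and siRNA replicate 2 lies within their range.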

How the results depend on the processing

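The count of 0 members past an adjusted p of 0.05 held in each comparison with the replicate block, with each renormalization, filter, variance model and fit of the 2 groups alone, at an adjusted p of 0.10 and with probe sets averaged per gene. With an array left out, the count for PIAS3 against control ran from 0 to 3, the 3 (BCL2A1, BCL2L2 and BCL2L13) coming without PIAS3 replicate 2, when 1232 of all 22215 probe sets also passed (5.55%); the other comparisons stayed at 0. The members' median difference for PIAS3 against control was -0.0217 with quantile normalization again and -0.0226 with cyclic loess, and ran from -0.0980 to -0.0215 with an array left out. For the STAT3 siRNA against control it ran from -0.0553 to 0.0372 with an array left out. For PIAS3 against the siRNA it was 0.00494 with cyclic loess and ran from -0.129 to 0.0421. Their causes were not tested, and a median this close to 0 has no settled sign. Averaged over probe sets, HRK differed from control by -0.03 and BCL2L1 by -0.20 with PIAS3. No shift shared by arrays of the same replicate number was seen (correlations of deviations between -0.06 and 0.09). This cannot tell whether such arrays were prepared together. The replicate block left 2 of all probe sets passing for PIAS3 against control, in place of 22, and 0 members. The count over all probe sets for PIAS3 against control moved with other settings too: 2 with the dim filter or quantile normalization again, 39 with cyclic loess, 40 with robust eBayes, 143 with array weights, 262 with the 2 groups alone and 0 to 1232 with an array left out.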
